A study of Mus musculus with 12 samples.

Results

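The 4 arrays described here hold RNA of mouse hepatic progenitor cells that received only the carrier protein solution (0.1% BSA) after 24 hours without serum. They are 4 of the 12 arrays of a study in which the other arrays came from the same kind of cells treated with 50 ng/mL of either IL-4 or IL-13, 4 arrays each. Per the labels the cells were negative for DAPI, CD45, CD31 and TER119 and positive for EpCAM, CD24 and CD133, so dead, blood and endothelial cells were gated out and epithelial cells bearing progenitor surface proteins were kept. All groups shared a William's E medium with 10% FBS, IL-6, HGF and EGF at 10 ng/mL each, 100 nM dexamethasone, 10 mM nicotinamide, 14 mM glucose and an insulin, transferrin and selenium supplement. The labels do not state whether these factors stayed in the medium during starvation, how long the vehicle was applied, the strain, sex or age of the mice, or whether the 4 arrays came from separate cultures or animals, so the spread between them may be technical. All 19057 genes with a probe of their own on the Illumina beadchip were ranked by mean normalised log2 signal. A gene counted as expressed where a probe passed a detection p of 0.05 on all 4 control arrays, as not detected where no probe passed on any of them, and as partly detected otherwise.

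Hepatic progenitor cells, also called oval cells in rodents, are small epithelial cells of the bile ductules that can be propagated in culture and can give rise to bile duct cells and hepatocytes. Bile duct cells are known for keratins 7 and 19 and the transcription factor Sox9, while hepatocytes are known for albumin, clotting factors, urea cycle enzymes, bile acid synthesis and cytochrome P450 enzymes. Keratins 8 and 18 form the intermediate filaments of simple epithelia, in both bile duct cells and hepatocytes.

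Of the 19057 genes, 9120 (47.9%) were expressed, 2210 (11.6%) were partly detected and 7727 (40.5%) were not detected. Each share of expressed genes in a list or family below is to be set against this 47.9%. Each control array detected between 9971 and 10208 annotated genes, at a median raw intensity between 99.1 and 107.2. The mean log2 signal of expressed genes ran from 4.58 to 13.97 with a median of 7.55, and no undetected gene exceeded 4.53. Olfactory receptors, which serve smell in the nose, gave a reading of how often the rule passes a gene with no known role here: 13 of 1078 (1.21%) were expressed, at means of 4.65 to 5.61, and 7431 of the 9120 expressed genes were brighter than every one of them. Signals below 5.61 are therefore given here as dim. The rank orders the brightness of probes, which differ in how they bind, and not the number of transcripts, and a silent probe does not show that a transcript is missing: Canx, an endoplasmic reticulum chaperone of nearly all cells, was not detected on any control array. Of the 5562 expressed genes with more than 1 probe, 2630 also had a probe detected on no control array.

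**Figure D1:**
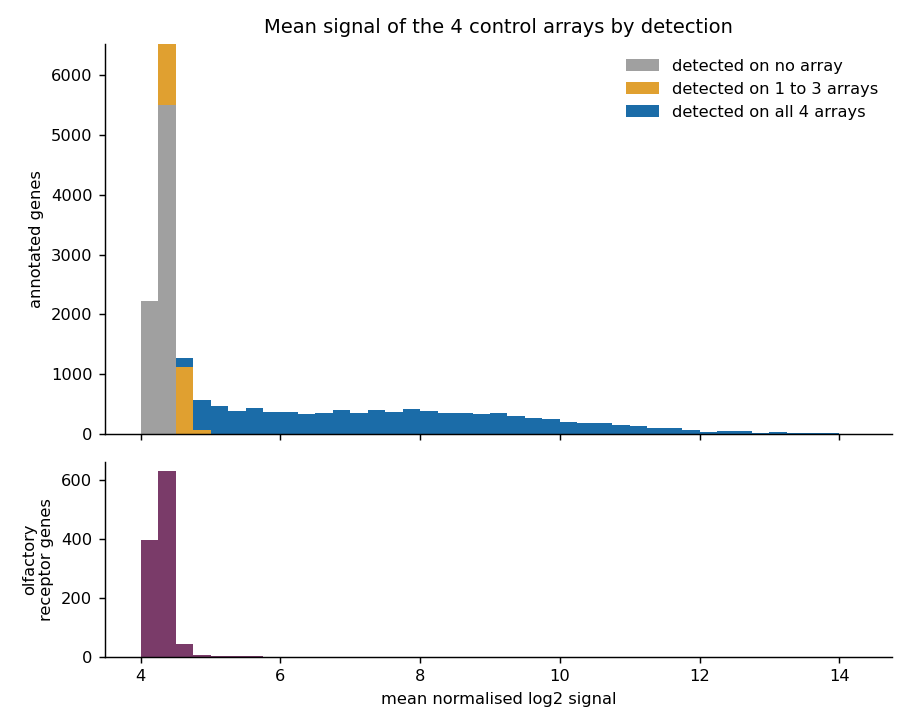
Number of annotated genes (upper panel, bars stacked by detection on the 4 control arrays) and of olfactory receptor genes (lower panel) in bins of mean normalised log2 signal. The undetected genes form a narrow peak that ends at 4.53, the expressed genes extend to 13.97, and the olfactory receptor genes end at 5.61.

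Control arrays 1 to 3 were close to each other, with a standard deviation of gene differences between 0.174 and 0.184 over the expressed genes, and array 4 stood slightly apart, at 0.238 to 0.25 from the other arrays. The mean log2 signal of 3 hemoglobin genes, each by its brightest probe over all 12 arrays, was 5.95 on control array 4 and 4.48 to 4.64 on the other control arrays. The median standard deviation of an expressed gene over the 4 arrays was 0.126 on the log2 scale, and 7 genes exceeded 0.5. Counting expression on arrays 1 to 3 alone gave 9245 expressed genes in place of 9120. Between the chips, 0 of 10453 genes tested (0%) differed among the control arrays at an adjusted p under 0.05 in limma, with 756 at an unadjusted p under 0.05, and 1 gene, Fxyd6, passed when the spread was taken from the control arrays alone.

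The 10 expressed genes of largest spread had standard deviations between 0.46 and 0.67. Fxyd6, a regulator of the sodium pump, read 4.61 and 4.58 on the first chip and 5.55 and 5.51 on the second. The pseudogene Gm4567 was high on array 2 (6.98, against 5.53 to 5.77), and the urotensin-related peptide gene Uts2b was high on array 4 (8.76, against 7.66 to 8.02). The others were the mitochondrial gene ND6, Reg3b, the protease inhibitor Timp3, the X-linked homeobox gene Rhox5, Zscan4c, the channel Hcn2 and Fxyd3. At the detection threshold itself, Tmem71, Ttbk2 and Zfp566 just counted as expressed, at a largest detection p of 0.0491 and means of 4.66, 4.65 and 4.82, and Akap13, Amer2 and Arhgef4 just failed, at 0.0502 and means of 4.65, 4.67 and 4.76. The signals on either side of the threshold overlapped.

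The markers named for these cells were present. Krt19 read 11.49, 11.46, 11.17 and 11.21 on control arrays 1 to 4 (11.34 ± 0.16, SD, n = 4), rank 426 of 19057. Sox9 read 10.06, 10.12, 10.1 and 10.2 (10.12 ± 0.06, SD, n = 4), and a dimmer probe of Sox9 read 6.2 ± 0.2. Cd24a, whose product was among the sorting antigens, read 7.65, 7.95, 7.71 and 8.02 (7.83 ± 0.18, SD, n = 4). These 3 genes lay far above the dim range on every control array, and Krt19 was brighter on both arrays of the first chip (1 and 2) than on both of the second (3 and 4). The transcripts of the other sorting antigens were not seen in this way: the single probe of Epcam was undetected (4.25 ± 0.07), and of the 3 probes of Prom1, which encodes CD133, only 1 passed, on 1 array (4.77 on array 4).

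The keratin pair of simple epithelia was among the brightest signals. Krt8 read 13.37, 13.3, 13.47 and 13.38 (rank 37), and Krt18 read 12.54, 12.51, 12.32 and 12.2 (rank 146). Alb, the albumin gene and the defining product of hepatocytes, read 4.19, 4.21, 4.23 and 4.28, within the range of undetected genes, at rank 17943. Both keratins were thus bright on all 4 arrays and Alb on none. The 300 bases around the annotated start of these 3 genes (RefSeq, GRCm38.p6, 250 bases before and 50 after the start, each on its gene's own strand) are shown because expressed and undetected genes differed in their promoter letters over the whole array, described further on, and because these 3 show both the usual pattern and an exception to it. Capitals mark CpG dinucleotides.
Krt18, chr15:102027966-102028265, plus strand: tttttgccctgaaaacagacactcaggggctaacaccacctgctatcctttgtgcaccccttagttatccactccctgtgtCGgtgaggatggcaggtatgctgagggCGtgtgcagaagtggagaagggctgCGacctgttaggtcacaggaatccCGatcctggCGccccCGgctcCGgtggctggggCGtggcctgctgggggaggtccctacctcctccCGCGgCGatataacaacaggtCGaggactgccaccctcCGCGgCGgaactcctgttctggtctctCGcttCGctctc
Krt8, chr15:102004293-102004592, minus strand: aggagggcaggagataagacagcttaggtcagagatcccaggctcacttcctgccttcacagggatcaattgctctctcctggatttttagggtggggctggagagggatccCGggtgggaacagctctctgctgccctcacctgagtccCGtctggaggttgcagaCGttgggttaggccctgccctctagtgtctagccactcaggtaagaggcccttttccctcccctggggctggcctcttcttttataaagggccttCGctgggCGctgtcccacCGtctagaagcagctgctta
Alb, chr5:90460620-90460919, plus strand: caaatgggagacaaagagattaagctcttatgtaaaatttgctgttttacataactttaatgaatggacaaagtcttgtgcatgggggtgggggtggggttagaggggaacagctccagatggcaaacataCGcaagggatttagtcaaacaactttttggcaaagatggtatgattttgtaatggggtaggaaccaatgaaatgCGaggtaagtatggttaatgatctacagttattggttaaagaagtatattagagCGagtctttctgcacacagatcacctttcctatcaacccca
The Krt18 stretch held 17 CpG dinucleotides, an observed over expected ratio of 0.6, and no TATAAA on either strand. The Krt8 stretch held 6, a ratio of 0.24, and did contain TATAAA. The Alb stretch held 3, a ratio of 0.27, and no TATAAA. Krt8 thus resembled silent Alb in the CpG ratio, though not in TATAAA, although the signal of Krt8 was bright.

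Of 34 bile duct and progenitor markers 22 (64.7%) were expressed, with a list median of 8.1 against 4.62 over all annotated genes. Anxa3, a calcium-dependent membrane-binding protein, was the brightest of them and read 13.62, 13.72, 13.66 and 13.53 (rank 20). Bicc1, an RNA-binding protein known from cystic kidney disease, read 12.75 ± 0.27, with its lowest value, 12.37, on array 4. Cd44, the hyaluronan receptor, read 11.56 ± 0.11, the tetraspanin Tspan8 11.26 ± 0.12 and Krt7 9.55 ± 0.12 (SD, n = 4 each). Cdh1 (E-cadherin), Aqp1, a water channel of bile duct cells, Slc4a2, their anion exchanger, and Muc1 were expressed as well, at 9.55, 9.51, 10.37 and 8.37. Other members of the same list were silent: Cftr, the chloride channel, Sctr, the secretin receptor, Slc10a2, the apical bile acid transporter, and Dmbt1 were not detected, and Pkhd1, a gene of the primary cilium, passed on 2 arrays. Lgr5, a Wnt pathway receptor of stem cells, was also not detected.

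Hepatocyte markers showed the opposite, with 8 of 39 (20.5%) expressed and 23 not detected, at a list median of 4.31. The 8 were Apob, Trf, Hnf4a, Ttr, Serpina1a, Afp, Glul and Ass1. Apob, the protein of secreted lipoproteins, read 9.87, 9.83, 9.92 and 9.73, and Trf, plasma transferrin, read 9.56, 9.6, 9.74 and 9.74. Their means stood at percentiles 92.3 and 91.5 of all annotated genes, and Alb at 5.9. Ttr, which carries thyroid hormone and retinol in plasma, read 7.11 ± 0.27, Serpina1a 6.23 ± 0.18 and Afp, the albumin of the fetal liver, 5.91 ± 0.06 (SD, n = 4 each). Enzymes and transporters of the mature hepatocyte, namely Cps1 and Otc of the urea cycle, Cyp7a1, the rate-limiting enzyme of bile acid synthesis, Cyp2e1, Cyp3a11, Tat and the bile salt export pump Abcb11, were not detected on any control array. A pair of plasma protein genes, Apob and Trf, was therefore bright in cells whose albumin probe was silent.

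Liver and foregut transcription factors were expressed in 24 of 38 cases (63.2%). Cebpb, a factor of the acute phase response, read 11.23 ± 0.09. Hhex, needed for the liver bud and the bile duct, read 10.67 ± 0.05, and Klf5 and Klf6 read 10.6 and 10.21. Hnf4a, the factor that maintains hepatocyte identity, read 9.32, 9.16, 9.12 and 8.95 (9.14 ± 0.15, SD, n = 4), above the dim range on every array although most of the hepatocyte genes listed above were silent. Onecut2 read 9.63, Gata6 9.97, Foxa2 7.4, Foxa1 6.07 and Foxa3 a dim 5.34, while Cebpa passed on 2 arrays, and Gata4, Nr5a2, Nr1i2 and the pancreatic factors Pdx1 and Ptf1a were not detected. Yap1, Wwtr1 (TAZ) and their DNA-binding partners Tead1 and Tead4, the output of the Hippo pathway that is known to favour the bile duct fate, were all expressed, at 8.12, 9.99, 8.84 and 6.72. Cdx2, the homeobox factor of the intestine, was expressed at 9.03, 8.88, 8.81 and 8.86.

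Of 19 fetal and oncofetal liver genes 8 (42.1%) were expressed, against 47.9% of all annotated genes. The imprinted gene Peg3 read 9.56 ± 0.18, the adhesion molecule Ncam1 8.43 ± 0.27, Bex2 8.17 ± 0.09, and the RNA-binding proteins Igf2bp1 and Igf2bp3 7.97 and 6.62. Dlk1, Gpc3, Kit, Thy1 and Lin28b, which mark fetal hepatoblasts or other progenitor cells, were not detected, and Igf2 passed on 2 arrays.

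**Figure D2:**
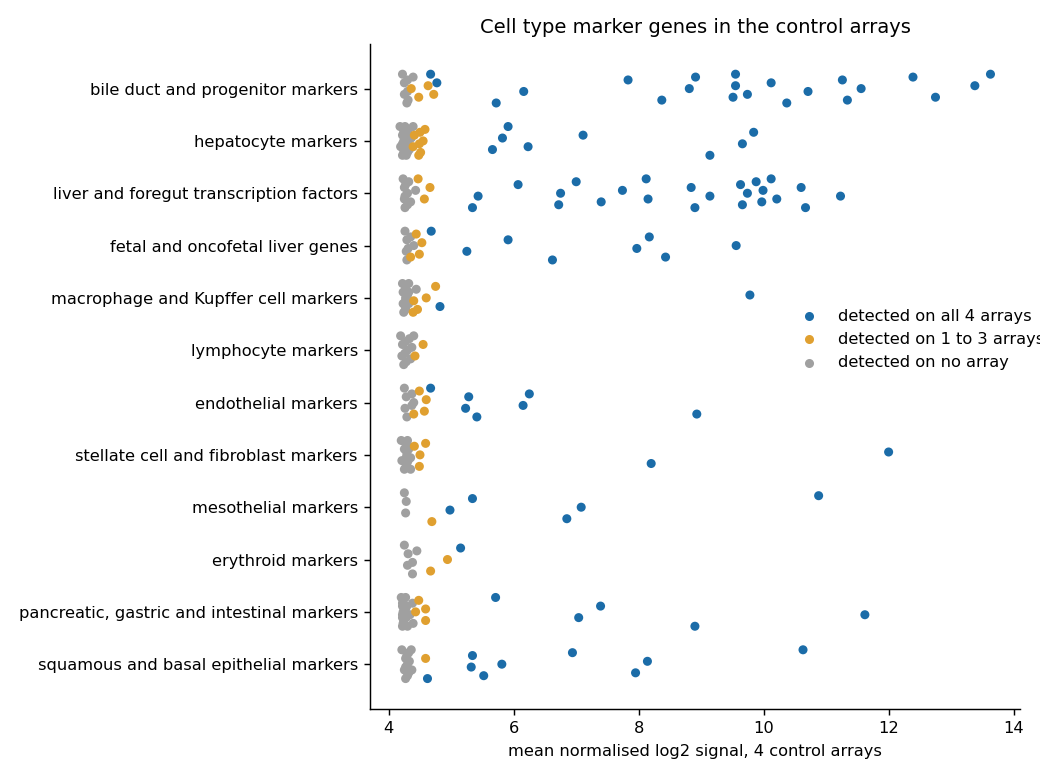
Mean normalised log2 signal over the 4 control arrays of each marker gene, one point a gene, in 12 lists of cell type markers; blue, orange and grey stand for detection on all 4, on 1 to 3 and on none of the arrays, and the height of a point within its row carries no value. Bile duct markers spread up to 13.63 and transcription factors up to 11.23, while hepatocyte, lymphocyte, macrophage and stellate cell markers sit mostly below 4.53.

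Markers of other cells of the liver were mostly silent. None of 14 lymphocyte markers was expressed, and of 22 macrophage markers 2 (9.09%) were: Cd14, the lipopolysaccharide co-receptor, at 9.77, 9.75, 9.76 and 9.83, and Csf1r at a dim 4.82. Ptprc, which encodes CD45, Adgre1 (F4/80), Clec4f and the C1q genes were not detected. Of 22 stellate cell and fibroblast markers 2 (9.09%) were expressed, Vim (vimentin) at 12 ± 0.11 and Acta2 (smooth muscle actin) at 7.87, 8.29, 7.85 and 8.81, and Col1a1, Col1a2, Col3a1, Dcn, Pdgfrb and Lrat were not detected. Among 18 endothelial markers 7 (38.9%) were expressed, led by the scavenger receptor Stab1 at 8.93 ± 0.2. The other endothelial genes read 6.25 or less, and Pecam1 (CD31), Vwf and Lyve1 were not detected. Hbb-bs was the only one of 9 erythroid markers expressed, at 4.76, 5.2, 4.87 and 5.77, dim on arrays 1 to 3 and highest on array 4, where Hba-a1 also reached 5.58.

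Some markers of other epithelia were read, against an expressed share of 47.9% over all genes. Of 9 mesothelial markers 5 (55.6%) were expressed, 3 of them above the dim range, with Msln (mesothelin) at 10.94, 10.96, 10.95 and 10.68. Krt14 and Igfbp5 were dim, Bnc1 passed on 3 arrays, and Gpm6a, Lrrn4 and Krt5 were not detected. Of 27 pancreatic, gastric and intestinal markers 5 (18.5%) were expressed: Lgals4, a galectin of the gut lining, at 11.75, 11.7, 11.4 and 11.62, Cdx2 as given above, the microvillus protein Vil1 at 7.39, the trefoil peptide Tff2 at 7.04 and the lectin Reg3b at 5.71. In the same list 18 were not detected, among them Cdx1, Fabp2 and Anpep. Of 23 squamous and basal markers 9 (39.1%) were expressed, 5 of them above the dim range, led by the cornified envelope precursor Sprr1a at 10.63 ± 0.18, while Trp63, Krt5, Krt6a and Krt17, which define basal and squamous cells, were not detected. Whether these signals came from all cells or from a few cannot be told from bulk RNA, in which fewer cells of a type and less RNA per cell cannot be told apart.

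The brightest 25 genes were mostly those of protein synthesis and the cytoskeleton. Ribosomal proteins and the elongation factors Eef1a1 and Eef1g made up most of them, led by Rplp1 at 13.97 ± 0.07. The tubulins Tubb5 and Tuba1b, the actin gene Actb, the iron store Fth1 and the calcium-binding S100a11 (13.79 ± 0.04) were in the same range, as were Anxa3, Ccn2, Cstb, a cystatin that blocks cathepsins, Atp5b of the ATP synthase, the prolyl isomerase Ppia and Ubb-ps, a ubiquitin pseudogene. Of 34 genes of the actin cytoskeleton and the S100 and annexin families 27 (79.4%) were expressed, at a list median of 9.74. Their bright members included Anxa2 at 13.49, Tmsb10 at 13.42, Tpm1 at 12.93 and S100a6 at 11.67, whereas Tagln, Cnn1 and Myl9, contractile genes of smooth muscle, were not detected.

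Epithelial and mesenchymal genes were detected side by side. Of 35 epithelial junction genes 19 (54.3%) were expressed, near the 47.9% of all annotated genes, and 14 of the 35 were above the dim range. Among the 14 were the catenins Ctnna1 at 12.71 and Ctnnb1 at 11.43, the desmosomal cadherin Dsg2 at 10.46 and the claudins Cldn2 at 10.35 and Cldn6 at 8.77. Ocln (occludin), Cldn3, Gjb1, the gap junction protein of hepatocytes, and the splicing factor Esrp1 were not detected. Of 20 genes of the epithelial to mesenchymal transition 17 (85%) were expressed, including Lgals1 at 12.79, Mmp14 at 11.76, Tgm2 at 11.43 and Sparc at 10.41. Of the transcription factors of that transition, Zeb1 read 8.17, Twist2 7.78, Snai2 6.19 and Zeb2 5.62, while Snai1 passed on 3 arrays and Twist1 on 2. Cdh2 (N-cadherin) read a dim 5.26 beside Cdh1 at 9.55. Among 32 keratins 9 (28.1%) were expressed, with Krt8, Krt18, Krt19 and Krt7 the brightest, ahead of Krt10 at 8.14 and Krt20, a keratin of the gut lining, at 7.27, and with Krt14, Krt1 and Krt80 dim.

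Ccn2, Mif and Igfbp7 were the brightest of the growth factor, cytokine and IGF system lists. Ccn2, also called connective tissue growth factor and a known target of YAP and TGF-beta, read 13.53, 13.62, 13.71 and 13.47 (rank 24). Mif, a cytokine that many cell types store, read 13.13, 13.08, 13.07 and 13.08, and the IGF-binding protein Igfbp7 read 13.07, 13.05, 12.91 and 12.99. None of the 3 varied much between arrays (SD 0.11, 0.03 and 0.07). Of 76 growth factors and morphogens 42 (55.3%) were expressed, against 47.9% of all annotated genes. Wnt7b read 10.9, 10.89, 11.1 and 10.32, lowest on array 4, Wnt10a read 10.16, Ccn4, a Wnt target, 11.02 and Bmp4 9.08. The platelet-derived factors Pdgfa and Pdgfb read 10.37 ± 0.12 and 10.03 ± 0.19, and both genes of their receptors, Pdgfra (1 array) and Pdgfrb (no array), were at or near background. Vegfa and Vegfb, which act on endothelium, read 9.19 and 9.73. The EGF family ligands Hbegf, Nrg1 and Btc read 8.91, 8.78 and 6.54. Hgf and Fgf7, growth factors of mesenchymal cells for hepatocytes, Fgf2, Bmp2, Shh and Ihh were not detected, and Egf read a dim 4.61.

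Chains of the basement membrane were read, and of the fibrillar collagens Col5a1 was expressed at 7.98 while Col1a1, Col1a2 and Col3a1 were not detected. Col4a1 and Col4a2, the main chains of basement membrane collagen, read 11.78 ± 0.13 and 11.11 ± 0.21. The proteoglycan Agrn read 12.27, Col18a1, the source of endostatin, 11.89, Hspg2 (perlecan) 10.05 and the laminin chains Lama5, Lamb2 and Lamc1 9.44, 9.22 and 9.02. In all 25 of 47 collagen and matrix genes (53.2%) were expressed, against 47.9% of all annotated genes. Of 54 matrix proteases and inhibitors 28 (51.9%) were expressed, led by Serpinb6a at 12.38, Cst3 (cystatin C) at 11.92, Timp2 at 11.81, the membrane-anchored protease Mmp14 at 11.76 and Timp1 at 10.23. Mmp3, Mmp7, Mmp8 and Mmp12 were not detected.

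Among 35 chemokines 13 (37.1%) were expressed. Cxcl1, which attracts neutrophils, read 10.62, 10.47, 10.56 and 10.79, and Ccl2, which attracts monocytes, read 10.36, 10.52, 10.37 and 10.92. Ccl9 read 9.24, Ccl20 8.8, Cxcl16 8.76 and Cxcl12 7.65. Ccl2, Ccl20 and Cxcl1 were each highest on array 4. Of 49 interleukins and other cytokines 16 (32.7%) were expressed: after Mif came Grn (progranulin) at 11.1, Csf1, the macrophage growth factor, at 8.61, Il33 at 8.47, Il11 at 7.88 and the IL-1 antagonist Il1rn at 7.5. Il6, Il1a, Il1b, Tnf, Il10, Il4 and Ifng were not detected, and Il13 read a dim 4.89 ± 0.19.

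Liver plasma proteins were detected in part. Of 33 acute phase and iron-binding genes 14 (42.4%) were expressed. The ferritins Fth1 and Ftl1 read 13.82 and 13.06, Cp (ceruloplasmin) 9.86, Hpx (hemopexin) 9.59, the lipopolysaccharide-binding protein Lbp 8.67 and Crp 7.14. Lcn2, the siderophore-binding lipocalin, was among the most variable of the list and read 6.89, 7.14, 7.54 and 7.84, with both arrays of the second chip above both of the first. Saa2, Saa3, Orm2, Hamp (hepcidin), Ahsg and the fibrinogen genes Fga and Fgb were not detected. Of 28 complement genes 10 (35.7%) were expressed: Masp1, a protease of the lectin pathway, read 11.77, 11.84, 11.87 and 11.45, while Cfb and Cfi read 6.53 and 6.13 and C4b a dim 5.09. Mucins, trefoil peptides and antimicrobial products were mostly silent, with 5 of 28 (17.9%) expressed and Muc2, Muc6, Agr2 and Tff3 not detected. In the IGF system 12 of 21 genes (57.1%) were expressed, with Igfbp4 at 11.13 and Irs2 at 8.6, and Igfbp1 and Igfbp2, both products of the liver, were not detected.

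**Figure D3:**
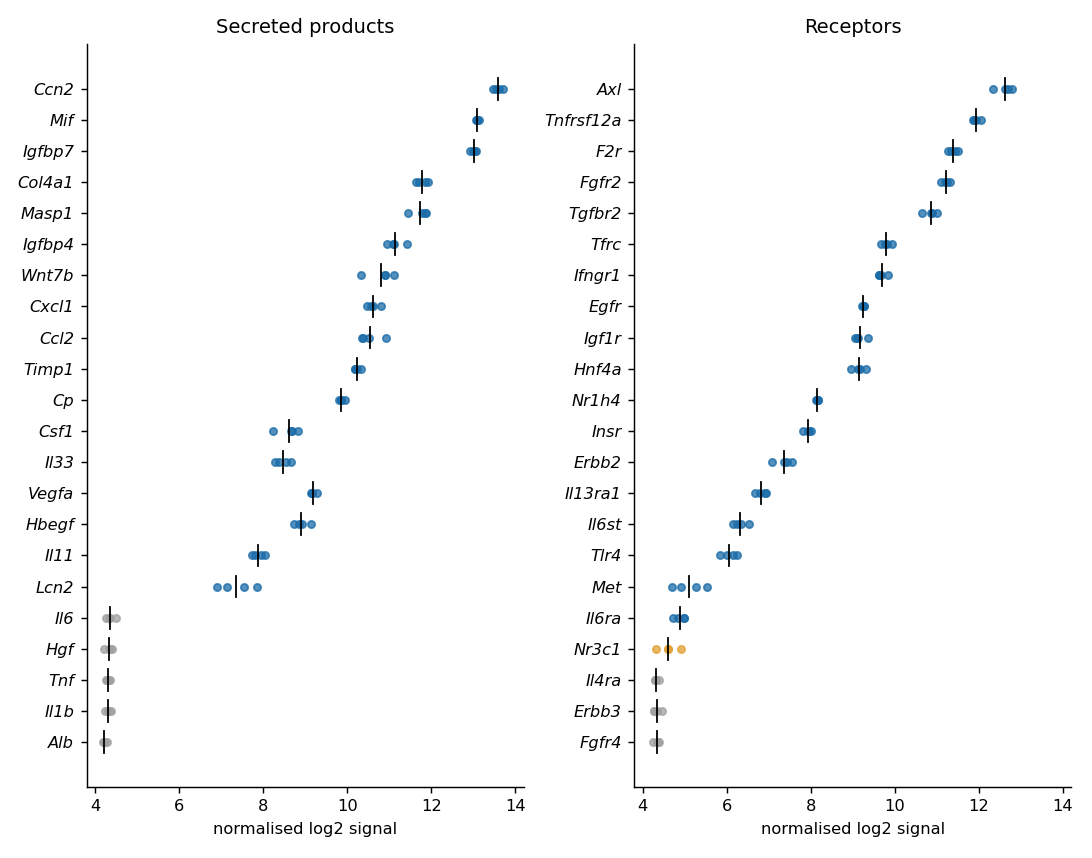
Normalised log2 signal of 22 secreted products (left) and 22 receptors (right) on each of the 4 control arrays (points) with their mean (vertical bar); blue, orange and grey stand for detection on all 4, on 1 to 3 and on none of the arrays. Ccn2, Mif and Igfbp7 lie above 12.9 on each array and Il6, Hgf, Tnf, Il1b and Alb at background; Axl is the brightest of the receptors drawn and Il4ra, Erbb3 and Fgfr4 are at background.

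The medium supplied ligands for several receptors, and their genes were read at different strengths. Of 18 receptors for medium factors and hormones 10 (55.6%) were expressed, against 47.9% of all annotated genes. Egfr, the EGF receptor, read 9.26, 9.22, 9.26 and 9.25 on its brightest probe, and 5 of its 6 probes passed on all arrays. Tfrc, the transferrin receptor, read 9.79 ± 0.11, the IGF-1 receptor Igf1r 9.16 ± 0.13 and Insr 7.93 ± 0.08. The IL-6 receptor chains Il6st (gp130) and Il6ra read 6.31 ± 0.16 and 4.89 ± 0.12, the second in the dim range. Met, the HGF receptor, read 5.26, 4.92, 5.52 and 4.69 and was dim on every array, and Nr3c1, the glucocorticoid receptor, passed on 3 arrays at a mean of 4.61. Each of Met and Nr3c1 has a single probe on the array. Erbb2 read 7.35, and its partners Erbb3 and Erbb4 were not detected.

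Among 38 other receptor tyrosine kinases 14 (36.8%) were expressed. Axl read 12.62, 12.7, 12.78 and 12.33, lowest on array 4, and its ligands Gas6 and Pros1 read 9.53 and 8.12, while the related receptors Tyro3 and Mertk were not detected. Fgfr2 read 11.22 ± 0.09 and Fgfr3 6.58, with Fgfr1 and the hepatocyte receptor Fgfr4 not detected. Ryk, a Wnt co-receptor, and the collagen receptor Ddr1 read 10.71 and 10.25. The ephrin receptors Ephb4 and Epha2 read 9.49 and 7.49.

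The cytokines used in the study act through receptors built from IL4RA with IL13RA1 or with the common gamma chain. Il13ra1 was expressed at 6.68, 6.9, 6.93 and 6.8, and the single probe of Il4ra was undetected at 4.31, 4.3, 4.38 and 4.29, as was the decoy receptor Il13ra2. Of 41 cytokine and interferon receptors 14 (34.1%) were expressed, led by Ifngr1 at 9.69, Il17rc at 9.63 and the growth hormone receptor Ghr at 8.2. Of 35 death, TNF and Toll-like receptors 14 (40%) were expressed, with Tnfrsf12a (Fn14), the receptor of the progenitor mitogen TWEAK, at 11.93, 11.88, 11.85 and 12.05. Tnfrsf21 read 10.26, Fas 8.33, Tlr2 6.9 and Tlr4 6.06, the last beside its co-receptor Cd14 and adaptor Myd88 at 9.78 and 9.86. The TWEAK gene, Tnfsf12, was not detected.

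Both TGF-beta receptors were expressed, Tgfbr2 at 10.85 ± 0.15 and Tgfbr1 at 10.17 ± 0.15. With them 22 of 38 receptors of the TGF-beta, Notch, Wnt and Hedgehog pathways (57.9%) were expressed, among them Bmpr2 at 9.12, Fzd5 at 8.52, Smo at 7.82 and Notch1 at 6.39, with the Notch ligand Jag1 at 6.16. Rnf43, Znrf3, Lgr4 and Notch3 were not detected. Of 29 integrin and tetraspanin genes 15 (51.7%) were expressed, against 47.9% of all annotated genes. Itga3, Itgb4 and Itgb6, which serve epithelial adhesion, read 11.04, 10.71 and 9.75. Of 37 receptors for bile acids, peptides and lipid mediators 12 (32.4%) were expressed, led by the thrombin receptor F2r at 11.38 and the sphingosine and bile acid receptor S1pr2 at 9.85, and Gpbar1 (TGR5), S1pr1 and Glp1r were not detected.

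Of 42 nuclear receptors 17 (40.5%) were expressed. Nr1h4 (FXR), the bile acid sensor, read 8.13, 8.14, 8.16 and 8.17, among the tightest of all genes named. Nr2f6, Rxrb, Esrra and Ppard read between 9.52 and 9.93, and Pparg read 7.89. Ppara, the regulator of fatty acid oxidation in hepatocytes, Nr1i2 (PXR), Nr0b2 (SHP), Ahr and Esr1 were not detected.

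**Figure D4:**
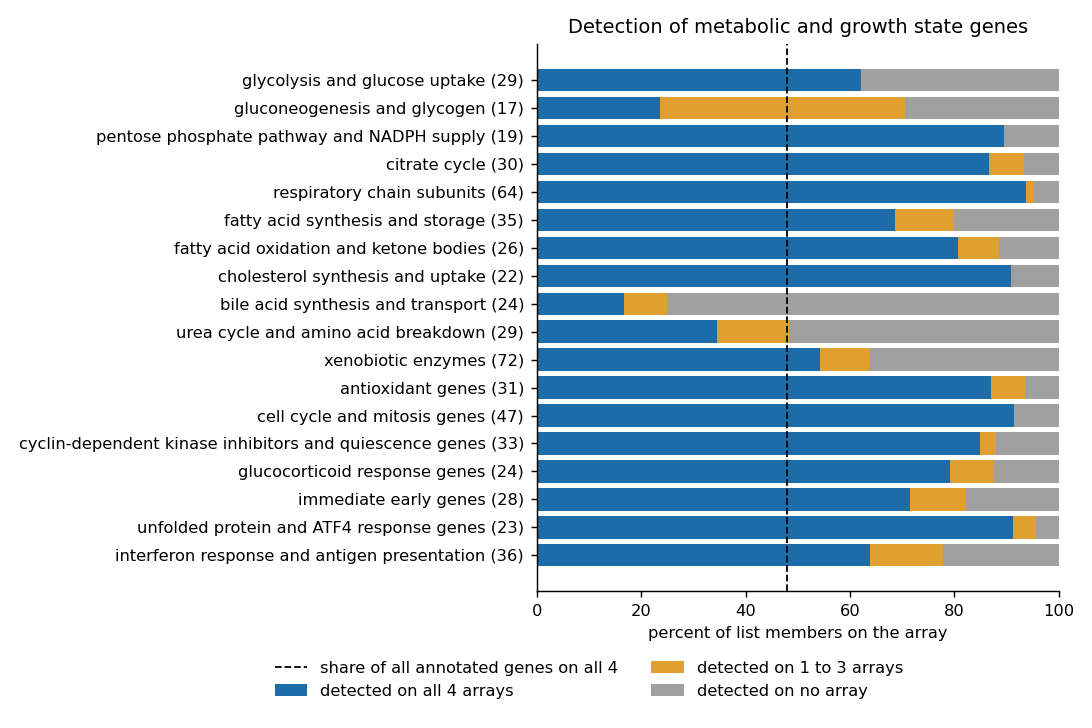
Percent of the members of each metabolic and growth state list that were detected on all 4 control arrays (blue), on 1 to 3 (orange) and on none (grey), with the number of members on the array in brackets. The dashed line marks the 47.9% of all annotated genes detected on all 4 arrays; respiratory chain genes reach 93.8% and bile acid genes 16.7%.

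Energy and building-block pathways that all growing cells use were expressed nearly in full. Of 64 respiratory chain subunits 60 (93.8%) were expressed, at a list median of 10.99, with Atp5b of the ATP synthase at 13.74. Of 30 citrate cycle genes 26 (86.7%) and of 19 genes of the pentose phosphate pathway, NADPH supply and serine synthesis 17 (89.5%) were expressed, including Taldo1 at 11.62, Psat1 at 11.44 and Tkt at 11.38. Of 22 cholesterol synthesis and uptake genes 20 (90.9%) were expressed, with Fdps at 11.25 and Sqle, an oxygen-dependent step of the pathway, at 10.17, and the cholesterol exporters Abca1 and Abcg1 were not detected.

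Glycolytic genes were bright for isoforms common outside the hepatocyte and dim for its own. Gapdh read 12.76, 12.77, 12.68 and 12.67, Pkm 12.43, Ldha 12.31, Aldoa 11.25 and the glucose transporter Slc2a1 10.23, 10.28, 10.25 and 9.86. The hepatocyte forms Pklr and Slc2a2 read a dim 5.18 ± 0.32 and 5.14 ± 0.11. The counts were 18 of 29 genes (62.1%) for glycolysis and 4 of 17 (23.5%) for gluconeogenesis and glycogen, where Fbp1, Gys2 and Pck2 were not detected and Pck1 and G6pc passed on 2 and 3 arrays.

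Lipid genes were read on both sides. Of 35 fatty acid synthesis and storage genes 24 (68.6%) were expressed, with the acyl-CoA synthetase Acsl5 at 12.47, the desaturase Fads1 at 11.85, Elovl5 at 11.04 and Acly at 11.01. Fasn passed on 1 array and Acaca on none, and the fatty acid carriers Fabp1 and Fabp4 and the lipase Lpl were not detected. Of 26 genes of fatty acid oxidation and ketone bodies 21 (80.8%) were expressed, with Etfa at 11.66 and Acadm at 10.51, and Oxct1, the ketone-using enzyme that hepatocytes lack, read 10.44 ± 0.06.

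Functions particular to the differentiated hepatocyte had few expressed genes. For bile acid synthesis and transport the count was 4 of 24 (16.7%): Hsd3b7 read 10.74, 11.01, 11.06 and 10.95, the exporter Abcc4 read 10.79, 10.91, 10.91 and 10.69, Abcc3 read 8.36 and Cyp8b1 a dim 4.95. Slc10a1, the bile acid uptake carrier, Baat, Slc27a5, Akr1d1 and the duct exporter chains Slc51a and Slc51b were not detected. For the urea cycle and amino acid breakdown the count was 10 of 29 (34.5%), with the tyrosine pathway enzyme Fah at 9.91 and the transaminases Gpt2 and Gpt at 8.14 and 7.07. Its undetected members included Hpd, Tdo2, Hal and Mat1a besides Cps1 and Otc.

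Of 72 xenobiotic genes 39 (54.2%) were expressed, against 47.9% of all annotated genes. The brightest included Gsto1 at 13.35, 13.47, 13.4 and 13.39, Gstp1 at 12.45 ± 0.11, Aldh2 at 12.12, the epoxide hydrolase Ephx1 at 11.68 and Aldh3a1 at 10.7. Gstp1 is known from preneoplastic foci of rat liver, through its rat counterpart. Of all 86 cytochrome P450 genes on the array 17 (19.8%) were expressed, with Cyp2s1 at 9.05 and Cyp3a13 at 8.85, and Cyp1a2, Cyp2c29 and Cyp3a25 were not detected. Of 31 antioxidant genes 27 (87.1%) were expressed, led by the ferritins, Prdx1 at 13.11 and Mt1, a metal-binding protein, at 13.09, whereas Nqo1, a quinone reductase, was not detected.

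Cell cycle genes were expressed in these serum-starved cells. Of 47 such genes 43 (91.5%) were expressed at a list median of 8.93. Ccnd1 (cyclin D1), which answers to mitogens, read 13.45, 13.34, 13.43 and 13.37. Genes of mitosis and DNA replication such as Cenpa at 11.47, Prc1 at 11.23, Mcm4 at 11.19 and Cdk1 at 9.82 were well above the dim range, and Ccnb2, Cenpe, Bub1 and Kif20a were not detected. Of 33 inhibitors and quiescence genes 28 (84.8%) were expressed too: Cdkn1a (p21) read 11.62, 11.59, 11.71 and 11.66, Mdm2 11.38 and Ccng1 11.65, all 3 of them known p53 targets. No arrays of cells kept in serum were part of the comparison, so these are levels and not differences.

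Stress and hormone response genes were also read as levels. Of 24 glucocorticoid response genes 19 (79.2%) were expressed, including Mt1, Sgk1 at 12.16, 12.18, 12.38 and 12.18, Dusp1 at 11.41, Klf9 at 10.17, Tsc22d3 (GILZ) at 8.63 and Fkbp5 at 7.38, beside the faint signal of Nr3c1. Mt2 read only 5.63, Zbtb16 and Pck1 passed on 2 arrays each, and Tat, Cdkn1c and Fgf21 were not detected. Of 23 unfolded protein and ATF4 response genes 21 (91.3%) were expressed, with Asns, asparagine synthetase, at 11.51 ± 0.08, Atf4 at 11.53, Herpud1 at 11.59 and Chac1 at 9.94. Of 28 immediate early genes 20 (71.4%) were expressed, with Ier3 at 12.11 and Junb at 10.45, and Myc read 5.69 and Fos a dim 5.3. Of 36 interferon and antigen presentation genes 23 (63.9%) were expressed: B2m read 12.36 ± 0.04, Irf1 11.29 and H2-D1 10.98. The class II genes H2-Aa, H2-Ab1 and H2-Eb1 and their activator Ciita were not detected. Of the interferon response genes, Ifi27 read 10.46 and Ifit3 8.04, while Irf7, Ifit1 and Oas1a were not detected. Mx1, Mx2 and Rsad2 passed on 1 array each. Xist, the RNA of the inactive X chromosome, read 7.83, 7.66, 7.92 and 7.75. The Y-linked Kdm5d, Uty, Usp9y and Zfy1 were not detected on any control array, and Eif2s3y, also Y-linked, passed on 1 array.

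The letters around the start of genes differed between the detection classes. Over the 12630 annotated genes with a single promoter in the RefSeq table, a CpG observed over expected ratio of at least 0.6 was found in 78.3% of the 5921 expressed genes, in 45.5% of the 1437 partly detected and in 23.4% of the 5272 not detected, against 51.7% of all. Without the olfactory, vomeronasal and taste receptor genes the share among undetected genes was 28.8%. Within the expressed genes the share was 69% in the 1480 dimmest and 83.1% in the 1481 brightest. The letters TATAAA, searched on both strands, were in 7.43% of expressed and 20.3% of undetected genes, against 13.3% of all, and in 15.7% of undetected genes without those receptor genes. Krt18, at a ratio of 0.6, lay at the cutoff and below the median of 0.8 of expressed genes, and had no TATAAA. Alb had a low ratio, as most undetected genes did, and no TATAAA, as most genes of each class. Krt8 was expressed with a low ratio and with TATAAA.

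Set against the 8 arrays of cells given IL-4 or IL-13, 642 of 10453 genes tested (6.14%) differed at an adjusted p under 0.05 in limma, 275 higher (2.63%) and 367 lower (3.51%) in the control arrays. That split depended on the processing: it was 597 higher and 206 lower with the submitters' processed values and 547 and 297 with scaling to the 75th percentile. Both alternatives also lacked the background correction, so the part of scaling alone was not isolated. The median difference over all genes tested was 0.01. Within chips, which hold fewer arrays, 383 genes passed on the first chip alone and 193 on the second alone. Position on the chip was the same for a group on both chips, so group and position cannot be told apart. Of the 9120 genes expressed in the control arrays 8822 were also detected on all 8 cytokine arrays and only Shc4 on none of them, at a dim 4.64 in the controls. Of the 7727 undetected genes 11 were detected on all 8 cytokine arrays.

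The genes lowest in control cells relative to cytokine arrays were near background. Chil4, a chitinase-like lectin, read 4.4, 4.32, 4.36 and 5.12 in control and passed on array 4 only, against a mean of 13.31 on the cytokine arrays (limma adjusted p = 2.99e-18). With 3 of its 4 control arrays at background, the fitted difference of -8.75 is not an exact size. Chil3 read 4.33, 4.21, 4.25 and 4.27 and was not detected, which puts the cytokine arrays at least 27.0-fold higher. The bound sets the cytokine mean against the lowest signal that passed detection on each control array. Chil3 entered the test through the cytokine arrays alone, so its limma adjusted p of 1.24e-14 adds no separate support. Probes of Chil3 and Chil4 can bind each other's transcripts. Igfbp5, an IGF-binding protein, read 4.73, 4.83, 5.14 and 5.2 and was dim in control (difference -4.71 ± 0.15, SE, adjusted p = 2.89e-13), and the protease Capn13 passed on 1 control array only, so that its fitted difference of -3.04 (adjusted p = 3.85e-13) is no exact size either. Cish, a feedback inhibitor of STAT5 signalling, differed from these in being bright already in control, at 9.02, 9.03, 9.26 and 8.8, below a cytokine mean of 11.58 (difference -2.55 ± 0.08, SE, adjusted p = 1.84e-13).

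The genes of smallest adjusted p that were higher in control were Dio3, Gzme, Pcsk6, Lims2 and Crp. Dio3, which inactivates thyroid hormone, read 7.2, 7.26, 7.22 and 7.07 in control against a cytokine mean of 6.48 (difference 0.71 ± 0.06, SE, adjusted p = 3.81e-07). Crp read 7.14, 7.19, 7.11 and 7.12 against 6.45 (difference 0.69 ± 0.08, adjusted p = 8.69e-06). Gzme, a granzyme, Pcsk6, a proprotein convertase, and Lims2, a focal adhesion adaptor, differed by 0.79, 0.84 and 0.59. For each of the 5 genes all control arrays lay above all 8 cytokine arrays, which is no separate support, as this same comparison picked them.

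**Figure D5:**
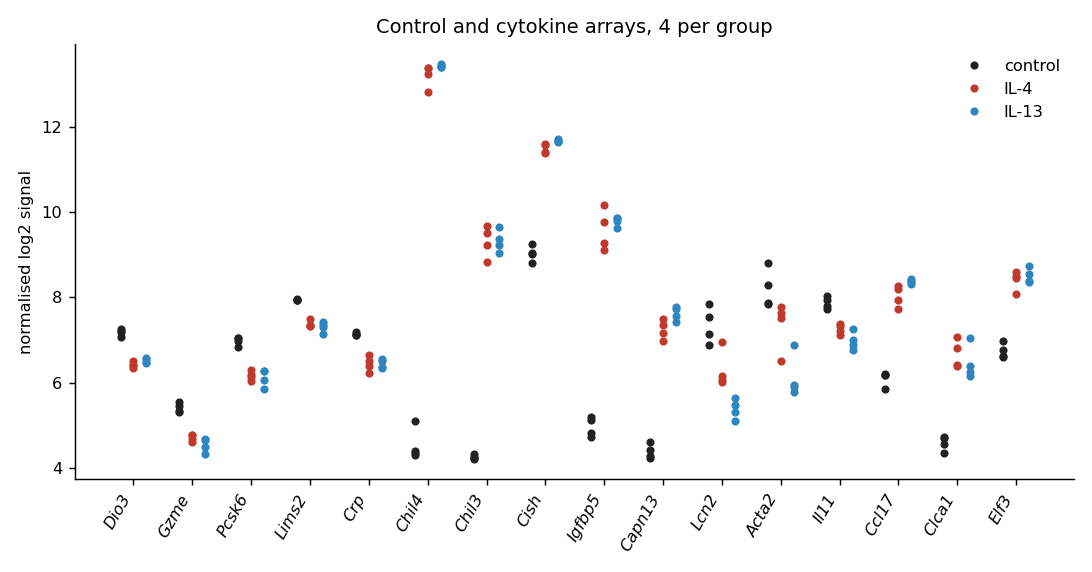
Normalised log2 signal on each array of the control (black), IL-4 (red) and IL-13 (blue) groups, 4 arrays a group, for the 5 genes of smallest adjusted p in each direction and 6 further genes chosen after their values were seen. Chil4, Chil3, Igfbp5 and Capn13 lie near background in control, Cish and Elf3 do not, and the control and IL-4 arrays of Lcn2 overlap.

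Of 26 tested bile duct markers 2 were higher (Krt7 and Muc1) and 5 lower in control (Krt18, Aqp1, Slc4a2, Cdh6 and Lgr5), against 2.63% and 3.51% of all genes tested, and Krt19, Sox9 and Cd24a did not pass the test. Lgr5 was not detected in control and entered the test through the cytokine arrays alone, so its call adds no separate support. Only a bound holds for Lgr5, at least 1.09-fold higher on the cytokine arrays. Krt18 differed by -0.43 ± 0.07 (adjusted p = 0.000982) and Krt7 by 0.4 ± 0.07 (adjusted p = 0.000594). No respiratory chain gene of 60 tested and 1 cell cycle gene of 43 tested, Ube2c, passed, against 6.14% of all genes tested. Genes of the control state that were higher without cytokine included Lcn2, at a difference of 1.51 ± 0.17 (SE, limma adjusted p = 1.58e-05) with 1 IL-4 array, at 6.95, above the lowest control array, and Acta2, at 1.46 ± 0.23 (adjusted p = 0.000513). Both differences are from the mean of the 2 cytokine groups, which were unlike. Lcn2 read 6.01 to 6.95 on the IL-4 arrays and 5.1 to 5.65 on the IL-13 arrays. Acta2 read 7.85 to 8.81 in control, 6.52 to 7.77 with IL-4 and 5.78 to 6.89 with IL-13. Il11 differed by 0.76 ± 0.09, the exporter Abcc3 by 0.66 ± 0.09 and Egfr by 0.38 ± 0.06. The 3 hemoglobin genes averaged 5.36, 6.77, 4.68 and 8.95 on IL-4 arrays 1 to 4 and 4.4 to 4.8 on the IL-13 arrays. The part of hemoglobin in these differences was not tested.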

How the data were processed

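Per the file headers, the deposited non-normalized table holds 45281 probes, with an intensity and a detection p-value per array; per the values, the intensity was neither scaled between arrays nor background-corrected by the authors. The authors also deposited processed log2 values, used as an alternative only. GenomeStudio 2011.1 is named in the submitters' processing notes; the settings were not stated there. Per the labels, RNA was extracted with Trizol and amplified with the TotalPrep kit. For the probes' genome build: not given in the sources used here.

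Intensities of all 12 arrays were normalised with neqc (limma 3.58.1, R 4.3.3; background from detection p-values, offset 16, quantiles, log2). Of the probes, 34885 had 1 gene symbol, 18 had several and 10378 had none; 99.8% of symbols matched current ones. A gene's level is that of its brightest probe over the control arrays, and 133 list entries with no annotated gene are not analysed here. The comparison used 10453 genes with a probe detected on at least 4 of the 12 arrays of any group, each by its brightest probe over all 12. Genes undetected in control, such as Chil3 and Lgr5, passed this filter through the cytokine arrays alone. The control mean was tested two-sided against the mean of both cytokine groups, with lmFit, eBayes and Benjamini-Hochberg adjustment. The test was checked on simulated data. Members and lists were chosen with earlier results of these data known. Genes named are the 25 brightest, up to 6 expressed and 6 undetected members of each list, the receptors and sorting antigens, those of smallest adjusted p, of largest spread and at the threshold; further list members were added after their values were seen. Detection thresholds, probe choice, scaling, chip, replicate block and single arrays were varied.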

Additional observations from a re-analysis of the deposited data

Results flagged for a closer look

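Of 440 genes named here, 23 (5.23%) had 1 control array far from the other 3, by a gap past the 95% critical value of Dixon's test for a group of 4; chance alone sets about 1 in 20 groups apart in this way. Control array 4 was the one apart in 9 of the 23, arrays 1 and 2 in 6 each and array 3 in 2. On array 4 the log2 signal of Msln was lower (10.68, against 10.94 to 10.96), as were Itga3 (10.78, against 11.1 to 11.17), Slc2a1 (9.86, against 10.23 to 10.28), Acsl5 (12.33, against 12.5 to 12.53) and Il1a (4.24, undetected). Higher on array 4 were Psat1 (11.54, against 11.4 to 11.41), Chil4 (5.12, against 4.32 to 4.4), Prom1 (4.77, against 4.37 to 4.4) and Cyp2c29 (4.36, undetected). The same array had the highest hemoglobin signal of the control arrays, and the part of hemoglobin in these values was not tested.

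On array 1 Ccl9 was lower (8.84, against 9.35 to 9.39), as were Ddr1 (10.07, against 10.29 to 10.32) and Eef1a1 (13.87, against 13.93 to 13.94), and Mif (13.13), Tmem71 (4.86) and Slc26a4 (4.49, undetected) were higher. On array 2 Gm4567 was higher (6.98, against 5.53 to 5.77), as were Cfb (6.93, against 6.37 to 6.41), Taldo1 (11.79, against 11.55 to 11.59), Rhox1 (4.55, against 4.3 to 4.33) and Nr1i2 (4.34, undetected), and Abcb11 was lower (4.16, undetected). On array 3 Sgk1 was higher (12.38, against 12.16 to 12.18), as was Lims2 (7.96, against 7.93).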

How the results depend on the processing

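The number of expressed genes (9120) was between 7431 and 9469 and that of undetected genes (7727) between 7727 and 9615 under every alternative run; 8425 and 9615 came from a detection p of 0.01, and 7431, an alternative chosen after seeing the data, from asking for a signal above every olfactory receptor gene. Without 1 control array they ranged from 9204 to 9245 and from 7953 to 8087. Leaving out array 4, also chosen after seeing the data, altered the expressed count of 13 of 52 lists, by at most 3 genes. The percentile of Egfr among annotated genes moved from 88.9 to 77.3, that of Insr from 79.2 to 66.8 and that of Igf1r from 88.3 to 77.3 with the mean of all probes, and that of Hba-a1 from 51.3 to 35.9 without control array 4. For control against cytokine arrays the 642 genes (275 higher, 367 lower) became 383 (142 and 241) on chip 1 alone and 193 (52 and 141) on chip 2 alone, with fewer arrays by construction. The split was 597 and 206 with the submitters' processed values and 547 and 297 with 75th percentile scaling, whose cause was not tested. Without 1 array the count ranged from 477 to 618, with 186 to 281 higher and 291 to 354 lower. With the replicate number as a block, 661 genes passed (283 and 378). Same-numbered arrays of different groups correlated between -0.15 and 0.21, and 4 of 12 arrays correlated best with their own number. These values show no clear pairing by number, but weak correlations cannot exclude one. For chip 2 against chip 1 the count of 0 became 1 with the 4 control arrays alone; the 756 genes at an unadjusted p under 0.05 became 1652 without control array 3 and 475 without control array 4. Arrays give no depth; their number, 4, limits the precision, and signals below 5.61 are in the range of the olfactory receptors.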

Other observations

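Several genes known from the placenta, the germ line or the early embryo were expressed, while relatives of them were dim or partly detected. The proliferins Prl2c2, Prl2c3 and Prl2c4, growth hormone relatives secreted by trophoblast giant cells and by some growing cell lines, read 8.93 ± 0.38, 8.79 ± 0.23 and 8.28 ± 0.24 (SD, n = 4 control arrays), each highest on array 1. Their sequences are nearly identical, so the probes cannot separate them. Psg23, a pregnancy-specific glycoprotein, read 8.66, 8.71, 8.57 and 8.65. The X-linked homeobox gene Rhox5, known from testis and placenta, read 6.29, 5.56, 5.06 and 5.69, and Zscan4c, a gene of the early embryo and of a fraction of embryonic stem cells, read 6.49, 6.27, 7.1 and 5.93. Of the granzymes, Gzme read 5.42 ± 0.12 and Gzmm 4.96 ± 0.15, both in the dim range. Of their relatives, Prl2c1 (4.82), Psg16 (4.61), Psg27 (4.42) and Rhox1 (4.37) were partly detected and Rhox12 was dim (4.96). These genes were chosen after their values were seen, and their source was not tested.

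Of 38 Hox genes, which give cells their place along the body axis, 3 were expressed (Hoxa13 at 5.46, Hoxb5 at 4.85 and Hoxc10 at 4.71), 11 were partly detected and 24 were not detected. All 3 were in the dim range set by the olfactory receptors. Over all annotated genes 47.9% were expressed and 40.5% were not detected.

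Among large families on the array, 51 of 59 ribosomal protein genes (86.4%), 149 of 368 solute carriers (40.5%), 20 of 48 ABC transporters (41.7%), 14 of 41 collagens (34.1%), 8 of 56 serpins (14.3%) and 1 of 42 keratin-associated proteins (2.38%) were expressed in the control arrays. Of the 10378 probes without a gene symbol, 2345 (22.6%) were detected on all 4 control arrays, and they enter no count above.

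Beyond Chil3, the 10 genes undetected in control and detected on all 8 cytokine arrays were Aqp7, Chil5, Fcmr, Galnt14, Klb, Lrrc26, Pla2g4c, Ppp1r14d, Slc26a4 and Spink4. Against the lowest detected signal Spink4, a Kazal-type inhibitor, was at least 3.06-fold and the phospholipase Pla2g4c at least 2.83-fold higher on the cytokine arrays, and the other 8 had bounds of 1.14-fold to 1.74-fold.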
